A study of Rattus norvegicus with 19 samples.

Results

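The 10 genes described here act on tryptophan, on the NAD precursors made from it, and on the monoamines serotonin and dopamine, in the renal cortex of rats with streptozotocin diabetes. They are Tph1, Ddc, Maoa, Maob, Kmo, Kynu, Haao, Acmsd, Qprt and Nampt, found by the gene name in the array files among the 24217 genes that were tested. The set was chosen from measured differences between the same groups of arrays. Their differences are therefore given as a description, and the adjusted p-values printed for them come from the fit over all 24217 genes and add no independent evidence.

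RNA of renal cortex was hybridised to 1-colour Agilent arrays, 1 array per rat, 19 in all, from male Crl:CD (SD) rats. The 5 Sham rats received vehicle intravenously and ate normal feed. The 7 DKD rats, the label for diabetic kidney disease, received 65 mg/kg streptozotocin, which destroys pancreatic beta cells, and also ate normal feed. The 7 DKD+enarodustat rats received the same streptozotocin dose, and their feed held 0.01% enarodustat by weight, a drug that stabilises hypoxia-inducible factor (HIF) by blocking prolyl hydroxylase. Grouping followed the injection by 7 days and kidneys were taken 14 days after grouping, with both diabetic groups matched on glucose and body weight. Both diabetic groups thus share the streptozotocin injection, and no group received the drug without diabetes.

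Tryptophan is the source of serotonin and, through the kynurenine branch, of quinolinic acid, from which NAD can be built anew. NAD is also rebuilt from nicotinamide in a salvage route. Proximal tubule cells of the kidney are a known site of NAD synthesis from tryptophan, and they also take up L-DOPA and turn it into dopamine, which acts on sodium handling before monoamine oxidases break it down.

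Levels are log2 processed intensities minus the 75th percentile of the same array, so a level of 0 equals that percentile and a difference of 1 is a doubling. The share of probes well above background ran from 54.38% to 67.26% per array, with 60.98% to 66.81% in Sham, 54.68% to 67.26% in DKD and 54.38% to 62.92% in DKD+enarodustat. Each of the 3 slides carried arrays of all 3 groups. Slide 1 held replicates 1 and 2 of each group, slide 2 replicates 3 and 4, and slide 3 the rest. Replicate 5 was the only Sham array on slide 3, and every difference from Sham given for slide 3 alone rests on it. Every Sham array lay in row 1 of its slide, every DKD+enarodustat array lay in row 2, and the DKD arrays were split, 5 in row 1 and 2 in row 2. Row and group therefore cannot be told apart when DKD+enarodustat and Sham arrays are set directly against each other. All 10 genes passed the filter on dim probes, which asked for a signal well above background on at least 5 of 19 arrays.

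Between DKD and Sham, 2 of the 10 genes were higher, Maob and Nampt, and 3 were lower, Tph1, Kynu and Qprt, at an adjusted p under 0.05 (limma, Benjamini-Hochberg over all genes). Over all genes tested, 8.02% were higher and 9.07% lower by the same rule. The groups did not overlap for 4 of the 10, namely Tph1, Maob, Kynu and Nampt, against 10.7% of all genes. Between DKD+enarodustat and DKD, 2 of the 10 were lower, Tph1 and Maob, and 0 were higher, against 0.933% and 1.07% of all genes. At an unadjusted p under 0.05, 4 of the 10 differed in that comparison, against 13.7% of all genes, 9 of the 10 differences were below 0, against 55.7% of all genes, and 0 of the 10 genes had groups that did not overlap, against 1.25% of all genes. Between DKD+enarodustat and Sham, 1 was higher, Nampt, and 5 were lower, Tph1, Kynu, Haao, Acmsd and Qprt, against 10.03% and 16.03% of all genes. The groups did not overlap there for 5 of the 10, against 14.4% of all genes. Since the set was chosen on these contrasts, nothing is read from how these counts stand to the shares over all genes. The median difference of the 10 genes was -0.08, -0.16 and -0.28 in the 3 comparisons in this order, beside -0.02, -0.02 and -0.04 over all genes.

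**Figure D1:**
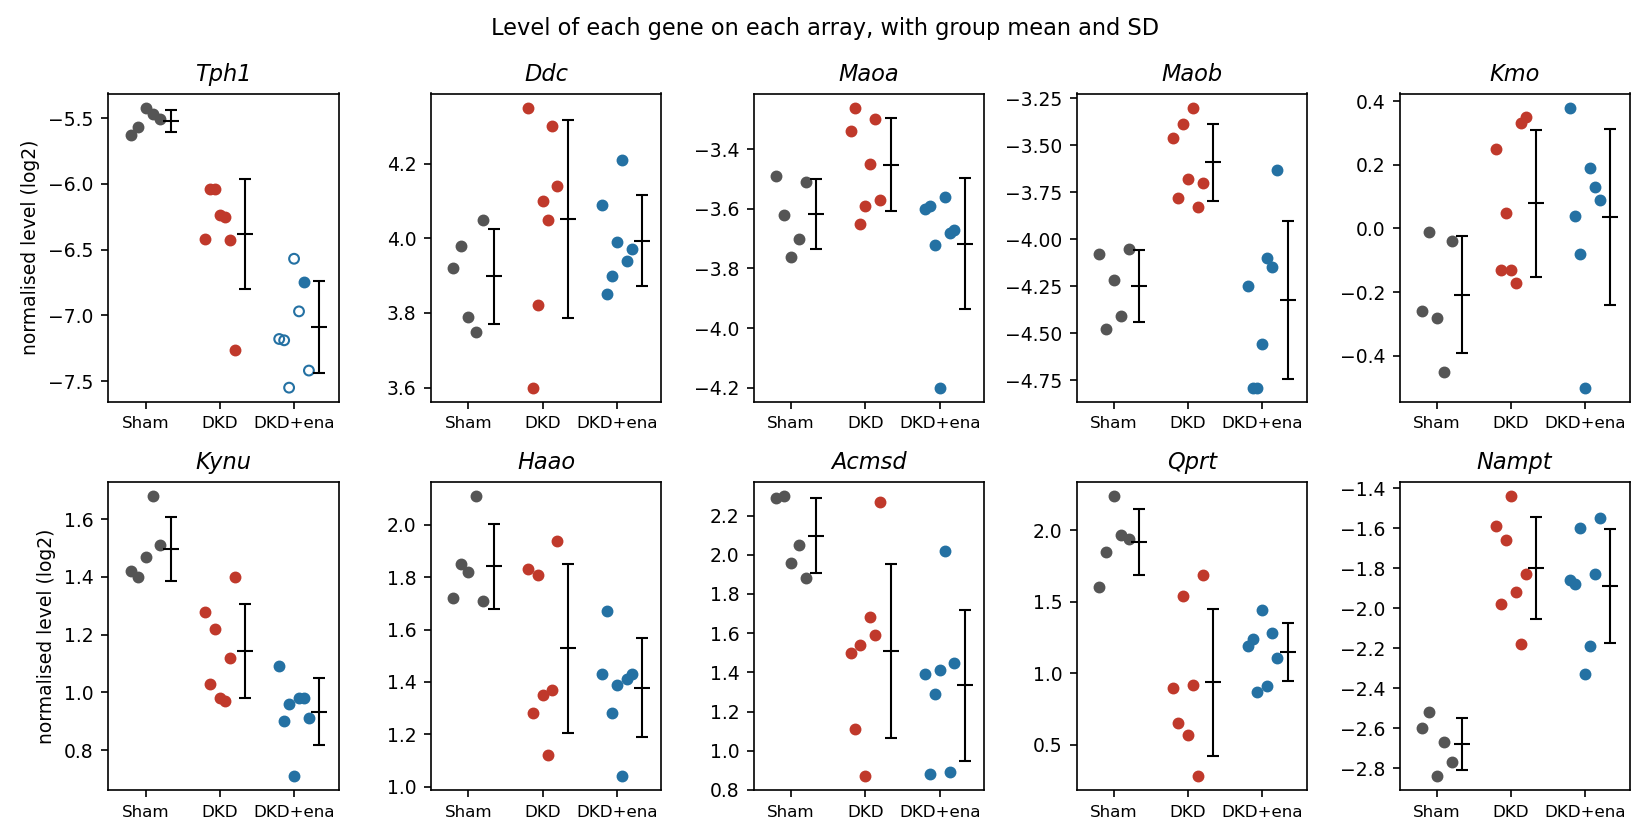
Normalised log2 level of each of the 10 genes (vertical axes, a separate scale in each panel) on each array of Sham (5), DKD (7) and DKD+enarodustat (7, written DKD+ena), with the group mean and SD in black and open circles where the probe was not well above background. Tph1 is lower in each diabetic group, Maob is higher in DKD than in Sham with 6 of 7 DKD+enarodustat arrays below all DKD arrays, and Nampt is higher on all 14 diabetic arrays than on any Sham array.

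**Figure D2:**
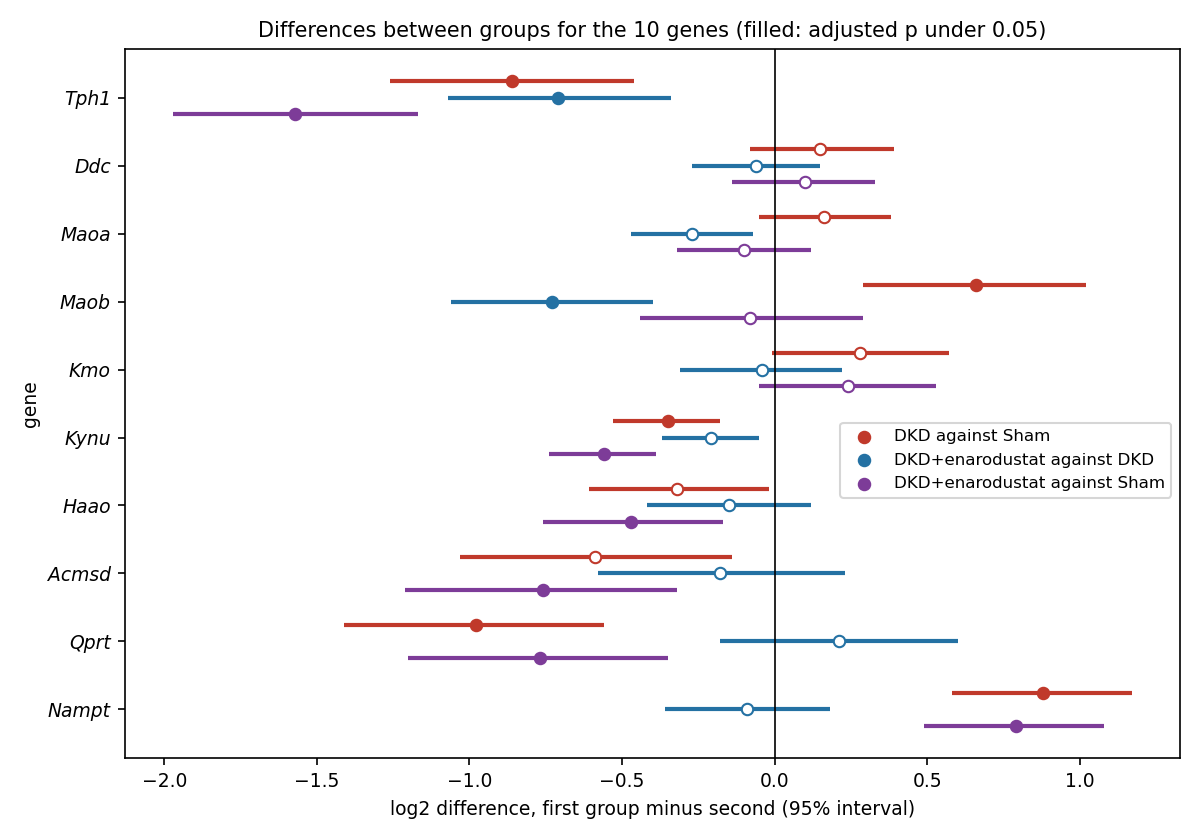
Log2 difference between groups with its 95% interval (horizontal axis) for the 10 genes in the 3 comparisons, filled where the adjusted p over all genes was under 0.05. Tph1 lies below 0 in all 3 comparisons, Maob lies at 0.66 and -0.73 in the first 2, and Kynu, Haao, Acmsd and Qprt lie below 0 in both comparisons with Sham.

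The promoters of Tph1, Maob and Haao are shown because enarodustat acts on HIF and these 3 hold the core letters of a HIF-binding site. The letters searched were ACGTG and GCGTG, on both strands, in the 250 bases before the transcription start, in the RefSeq table of the GRCr8 assembly. GCGTG is also the core bound by the aryl hydrocarbon receptor, a receptor for which kynurenine is a known ligand, and ACGTG overlaps the E-box CACGTG. Capitals mark the matched letters, which read CACGT where the match lies on the reverse strand. Tph1 is shown from chr1:106314629-106314878 on the minus strand, Maob from chrX:8490155-8490404 on the plus strand, and Haao from chr6:16598075-16598324 on the plus strand.
Tph1: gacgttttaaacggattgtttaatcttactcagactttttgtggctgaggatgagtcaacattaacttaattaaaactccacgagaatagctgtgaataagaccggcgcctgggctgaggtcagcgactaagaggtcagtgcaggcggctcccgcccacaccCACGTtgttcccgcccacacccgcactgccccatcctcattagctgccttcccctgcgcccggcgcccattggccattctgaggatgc
Maob: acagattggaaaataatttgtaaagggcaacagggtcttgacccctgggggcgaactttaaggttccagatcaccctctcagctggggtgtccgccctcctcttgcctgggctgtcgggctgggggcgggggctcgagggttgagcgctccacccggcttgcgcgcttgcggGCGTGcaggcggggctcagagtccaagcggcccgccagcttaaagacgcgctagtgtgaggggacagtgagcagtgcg
Haao: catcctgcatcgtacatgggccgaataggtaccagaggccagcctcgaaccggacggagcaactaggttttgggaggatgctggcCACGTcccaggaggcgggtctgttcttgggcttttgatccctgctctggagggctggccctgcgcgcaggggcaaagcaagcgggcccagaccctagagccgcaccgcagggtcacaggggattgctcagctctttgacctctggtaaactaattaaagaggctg
The ACGTG core of Tph1 lay on the reverse strand and began 88 bases before the start. The GCGTG core of Maob was on the forward strand, 78 bases before the start. In Haao an ACGTG core lay on the reverse strand, 165 bases before the start. Of the 8 genes with an entry in the table, 2 held ACGTG, 1 held GCGTG and 0 held CACGTG, while of 33469 promoters of the same length 16.6% held ACGTG, 25.9% held GCGTG and 5.59% held CACGTG. The windows of Ddc, Maoa, Kmo, Kynu and Qprt did not hold these letters. Acmsd and Nampt had no entry. These matches are a description of the letters and not of binding.

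Tph1 and Ddc make serotonin. Tph1 encodes the tryptophan hydroxylase of tissues outside the brain, the rate-limiting enzyme of serotonin synthesis. Its probe, placed by the file at chr1:97186071-97186087 of the rn4 assembly, was dim. Tph1 stood at -5.63, -5.57, -5.42, -5.47 and -5.51 in the 5 Sham arrays. In DKD its level ran from -7.26 through a median of -6.25 to -6.04. With enarodustat it ran from -7.55 through -7.18 to -6.57. Every diabetic array lay below every Sham array, while only 2 of 7 DKD+enarodustat arrays lay below all DKD arrays. The probe was well above background on 5 of 5 Sham arrays, 7 of 7 DKD arrays and 1 of 7 DKD+enarodustat arrays. Processed intensities ran from 18.65 to 21.32 in Sham, from 6.802 to 14.96 in DKD and from 5.242 to 10.25 in DKD+enarodustat.

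Tph1 was 0.86 ± 0.19 (SE) lower on the log2 scale in DKD than in Sham, or 1.82-fold (limma, adjusted p = 0.00437). As measured, the level was a further 0.71 ± 0.17 lower in DKD+enarodustat than in DKD (limma, adjusted p = 0.0427) and 1.57 ± 0.19 lower than in Sham (limma, adjusted p = 1.3e-05). With the probe above background on 1 of 7 treated arrays the size of both differences is uncertain, and no fold is given. Across the alternatives the DKD+enarodustat against Sham difference ran from -1.91 to -0.29 and passed in 21 of 21 tested. That between DKD and Sham ran from -1.14 to -0.18 and passed in 21 of 22 tested. The difference between the diabetic groups did not hold its call: the adjusted p was above 0.05 in 18 of 25 tested alternatives and ranged from 0.00217 to 0.45. Leaving out 1 array kept the call in 3 of 14 cases, those without DKD replicate 7, DKD+enarodustat replicate 4 or DKD+enarodustat replicate 6, and lost it without any other array, with differences from -0.85 to -0.63. DKD replicate 7, at -7.26, was the lowest DKD array for this gene, with the next at -6.43, and without it the difference was -0.85. On slides 1, 2 and 3 taken alone the DKD+enarodustat minus DKD difference was -0.96, -0.92 and -0.39, and the DKD minus Sham difference was -0.63, -0.69 and -1.14. With normexp background correction, which adds an offset of 50 intensity units to a gene this dim, the difference was -0.11 and did not pass (limma, adjusted p = 0.199). A second Tph1 probe, above background on 7 of 19 arrays, gave -0.79 ± 0.61, -0.50 ± 0.56 and -1.29 ± 0.61 in the 3 comparisons, and with the mean of both probes neither the DKD against Sham (limma, adjusted p = 0.134) nor the DKD+enarodustat against DKD difference (limma, adjusted p = 0.45) passed.

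Mast cells are a known source of Tph1 in peripheral tissues. Of 6 mast cell markers, Cpa3 and Ms4a2 were too dim to test, being above background on at most 2 and 0 arrays. Of the 4 tested, Hdc and Kit were higher in DKD than in Sham, by 1.04 ± 0.25 (limma, adjusted p = 0.00662) and 0.68 (limma, adjusted p = 0.000368). Cma1 and Tpsb2, at 2.62 ± 1.06 and 0.42 ± 0.50, did not pass (limma, adjusted p = 0.101 and 0.663). Hdc and Kit are also known outside mast cells. The summed level of the 4 markers, on the linear scale where 1 is the 75th percentile of the array, ran from 0.6338 to 0.8174 in Sham, from 0.9003 to 1.537 in DKD and from 0.9165 to 1.193 in DKD+enarodustat. Most of this sum is Kit, with a mean log2 level of 0.15 in DKD, beside -5.36 for Hdc, -6.3 for Tpsb2 and -7.05 for Cma1. Between DKD+enarodustat and DKD none of the 4 passed, with differences of -0.81 for Cma1, -0.54 for Hdc, -0.36 for Tpsb2 and -0.15 for Kit. Their part in the Tph1 result was not tested. In whole cortex, fewer cells of a type and less RNA per cell cannot be told apart, for this gene and for those that follow.

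Ddc encodes aromatic L-amino acid decarboxylase, which makes serotonin from 5-hydroxytryptophan and dopamine from L-DOPA. Its level was 3.92, 3.98, 3.79, 3.75 and 4.05 in the Sham arrays. The DKD arrays ran from 3.60 to 4.35 with a median of 4.10, and the treated arrays from 3.85 to 4.21 with a median of 3.97. All 3 groups overlapped. The differences were 0.15 ± 0.11 for DKD against Sham, with a 95% interval of -0.08 to 0.39, and -0.06 ± 0.10 for DKD+enarodustat against DKD, with an interval of -0.27 to 0.15. Neither passed (limma, adjusted p = 0.412 and 0.905). Of its 6 probes, 5 passed the filter, and the other 4 of these gave DKD against Sham differences between -0.54 and 0.41, none of which passed.

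Maoa and Maob encode the monoamine oxidases of the outer mitochondrial membrane, which break down serotonin and dopamine. Maob was the gene of the set that was higher in DKD than in Sham and lower again with enarodustat. Its probe lies at chrX:17657030-17657089 (rn4) and was above background on all 19 arrays. Levels were -4.08, -4.48, -4.22, -4.41 and -4.05 in Sham. In DKD they ran from -3.83 through a median of -3.68 to -3.30, all above every Sham array. In DKD+enarodustat they ran from -4.79 through -4.25 to -3.63. Of the 7 treated arrays, 6 lay below all DKD arrays, and the exception, replicate 7 at -3.63, lay within the DKD range.

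Maob was 0.66 ± 0.17 higher in DKD than in Sham, or 1.58-fold (limma, adjusted p = 0.0131), and this held in 24 of 24 tested alternatives. It was 0.73 ± 0.16 lower in DKD+enarodustat than in DKD, or 1.66-fold (limma, adjusted p = 0.0189). The treated and Sham groups differed by -0.08 ± 0.17, with an interval of -0.44 to 0.29 (limma, adjusted p = 0.815). The lower level with enarodustat passed in 24 of 27 tested alternatives, including all 14 that left out 1 array. It did not pass with only the 2 diabetic groups in the fit (-0.73, limma, adjusted p = 0.06), with the slide row in the fit (-0.60, limma, adjusted p = 0.474) or within row 2 (-0.60, limma, adjusted p = 0.87), where 2 DKD arrays remained. Against the 5 DKD arrays of row 1 alone, an alternative added after the data were seen, the difference was -0.79 (limma, adjusted p = 0.032). Slides 1, 2 and 3 taken alone gave -0.90, -1.14 and -0.35, and for DKD against Sham 0.66, 0.78 and 0.44. In the value table deposited by the authors the DKD+enarodustat against DKD difference was -0.39 and that between DKD and Sham 0.29. Processed intensities of Maob were low, from 35 to 104.7 over the arrays. The part of the scaling of that table in these smaller values was not tested.

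Maoa stood at -3.49, -3.62, -3.76, -3.70 and -3.51 in Sham. DKD arrays ran from -3.65 to -3.26 (median -3.45) and treated arrays from -4.20 to -3.56 (median -3.67). The groups overlapped in every comparison, although 4 of 7 treated arrays lay below all DKD arrays. The DKD against Sham difference was 0.16 ± 0.10 (limma, adjusted p = 0.335) and the DKD+enarodustat against DKD difference was -0.27 ± 0.09 (limma, adjusted p = 0.184). The latter passed with slide as a block (limma, adjusted p = 0.0414), the only one of 27 tested alternatives in which it did. Maoa thus differed from Maob in which calls it received, and the difference between these 2 genes was not tested.

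**Figure D3:**
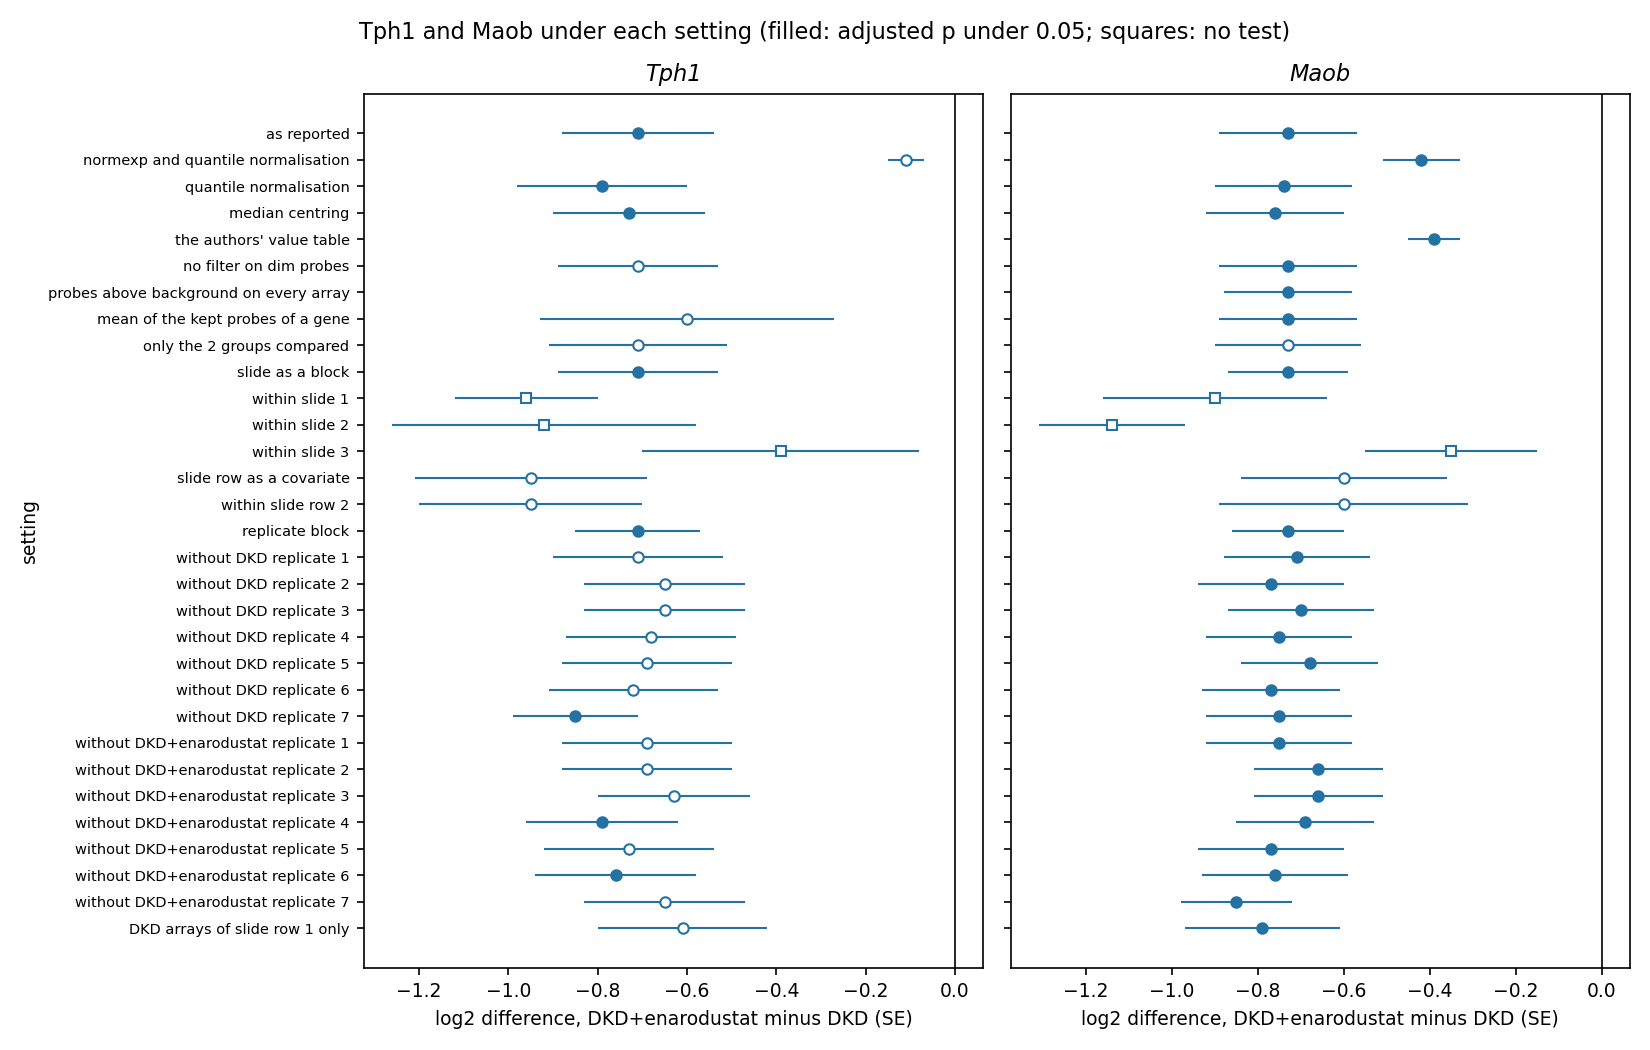
Log2 difference between DKD+enarodustat and DKD (horizontal axis, bars are SE) for Tph1 and Maob as reported and under each alternative (vertical axis), filled where the adjusted p was under 0.05 and square where a slide was taken alone and no test was made. All values lie below 0, and Maob is filled in 24 of 27 tested alternatives and Tph1 in 7 of 25.

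The kynurenine branch is represented by 5 genes. Kmo encodes kynurenine 3-monooxygenase, Kynu kynureninase, and Haao the dioxygenase that makes the precursor of quinolinic acid. Acmsd encodes the decarboxylase that draws this precursor away from NAD synthesis, and Qprt the phosphoribosyltransferase that turns quinolinic acid into nicotinic acid mononucleotide. Kynu and Qprt were lower in DKD than in Sham, Haao and Acmsd passed between DKD+enarodustat and Sham and not between DKD and Sham, and Kmo passed in no comparison. None of the 5 passed between the 2 diabetic groups.

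Qprt stood at 1.60, 1.85, 2.24, 1.97 and 1.94 in Sham. DKD levels ran from 0.28 through a median of 0.90 to 1.69, and 6 of 7 lay below all Sham arrays. Treated levels ran from 0.87 through 1.19 to 1.44, all below Sham. Qprt was 0.98 ± 0.20 lower in DKD, or 1.98-fold (limma, adjusted p = 0.00254), and 0.77 ± 0.20 lower in DKD+enarodustat than in Sham, or 1.71-fold (limma, adjusted p = 0.00891). DKD+enarodustat and DKD differed by 0.21 ± 0.19, with an interval of -0.18 to 0.60 (limma, adjusted p = 0.717). The spread was wider in DKD (SD 0.51) than in DKD+enarodustat (SD 0.21) or Sham (SD 0.23), a comparison of spreads that was not tested. The DKD against Sham difference was -0.95, -1.05 and -0.98 on slides 1, 2 and 3. Within row 1, where 5 Sham and 5 DKD arrays remained, it was -0.85 and did not pass (limma, adjusted p = 0.0542).

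Kynu stood at 1.42, 1.40, 1.47, 1.68 and 1.51 in Sham. In DKD it ran from 0.97 through 1.12 to 1.40. Treated arrays ran from 0.71 through 0.96 to 1.09. Neither diabetic group overlapped Sham, with the highest DKD array just under the lowest Sham array, and 4 of 7 treated arrays lay below all DKD arrays. Kynu was 0.35 ± 0.08 lower in DKD than in Sham, or 1.28-fold (limma, adjusted p = 0.00669), and 0.56 ± 0.08 lower in DKD+enarodustat than in Sham, or 1.48-fold (limma, adjusted p = 8.84e-05). The difference of -0.21 ± 0.08 between the diabetic groups did not pass (limma, adjusted p = 0.189). On slides 1, 2 and 3 the DKD against Sham difference was -0.25, -0.48 and -0.34, and within row 1 it was -0.30 and did not pass (limma, adjusted p = 0.067). A second Kynu probe above background on all arrays gave -0.32 ± 0.09, -0.22 ± 0.08 and -0.55 ± 0.09 in the 3 comparisons.

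Haao stood at 1.72, 1.85, 1.82, 2.11 and 1.71 in Sham, between 1.12 and 1.94 in DKD (median 1.37), and between 1.04 and 1.67 in DKD+enarodustat (median 1.41). The DKD arrays reached into the Sham range and the treated arrays did not. Haao was 0.47 ± 0.14 lower in DKD+enarodustat than in Sham, or 1.38-fold (limma, adjusted p = 0.0204), and this call was lost without Sham replicate 4 (limma, adjusted p = 0.0645). The DKD difference of -0.32 ± 0.14 did not pass (limma, adjusted p = 0.144). It passed in 2 of 24 tested alternatives, with normexp and quantile normalisation (-0.41, limma, adjusted p = 0.0367) and in the authors' deposited value table (-0.32, limma, adjusted p = 0.0486). The difference between the diabetic groups was -0.15 ± 0.13 (limma, adjusted p = 0.707).

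Acmsd stood at 2.29, 2.30, 1.96, 2.05 and 1.88 in Sham, between 0.87 and 2.27 in DKD (median 1.54), and between 0.88 and 2.02 in DKD+enarodustat (median 1.39). In each diabetic group 6 of 7 arrays lay below all Sham arrays. The DKD difference was -0.59 ± 0.21 (limma, adjusted p = 0.0657), and without DKD replicate 7 it was -0.71 (limma, adjusted p = 0.0161). It passed in 6 of 24 tested alternatives. On slides 1, 2 and 3 it was -0.99, -0.80 and -0.03. Slide 3 carried DKD replicate 7, and Sham replicate 5 was its only Sham array. Acmsd was 0.76 ± 0.21 lower in DKD+enarodustat than in Sham, or 1.70-fold (limma, adjusted p = 0.0123), and differed by -0.18 ± 0.19 between the diabetic groups (limma, adjusted p = 0.804).

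Kmo stood at -0.26, -0.01, -0.28, -0.45 and -0.04 in Sham, between -0.17 and 0.35 in DKD (median 0.05), and between -0.50 and 0.38 in DKD+enarodustat (median 0.09). The groups overlapped. Its DKD difference of 0.28 ± 0.14 had the opposite sign to those of Kynu, Haao, Acmsd and Qprt and did not pass (limma, adjusted p = 0.182). The treated group stood 0.24 ± 0.14 above Sham (limma, adjusted p = 0.221), which passed without DKD+enarodustat replicate 4 (limma, adjusted p = 0.0464).

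DKD replicate 7 was the highest DKD array for Kmo, Kynu, Haao, Acmsd and Qprt, and it lay within the Sham range for Haao, Acmsd and Qprt. The lowest DKD arrays were not shared in the same way, being replicate 5 for Kmo, Kynu and Haao, replicate 4 for Acmsd and replicate 6 for Qprt. For Havcr1, the kidney injury molecule, replicate 7 stood at -2.20 among DKD arrays from -3.97 to -0.11, all above the Sham arrays at -6.91 to -5.87. It was therefore not without the injury marker.

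**Figure D4:**
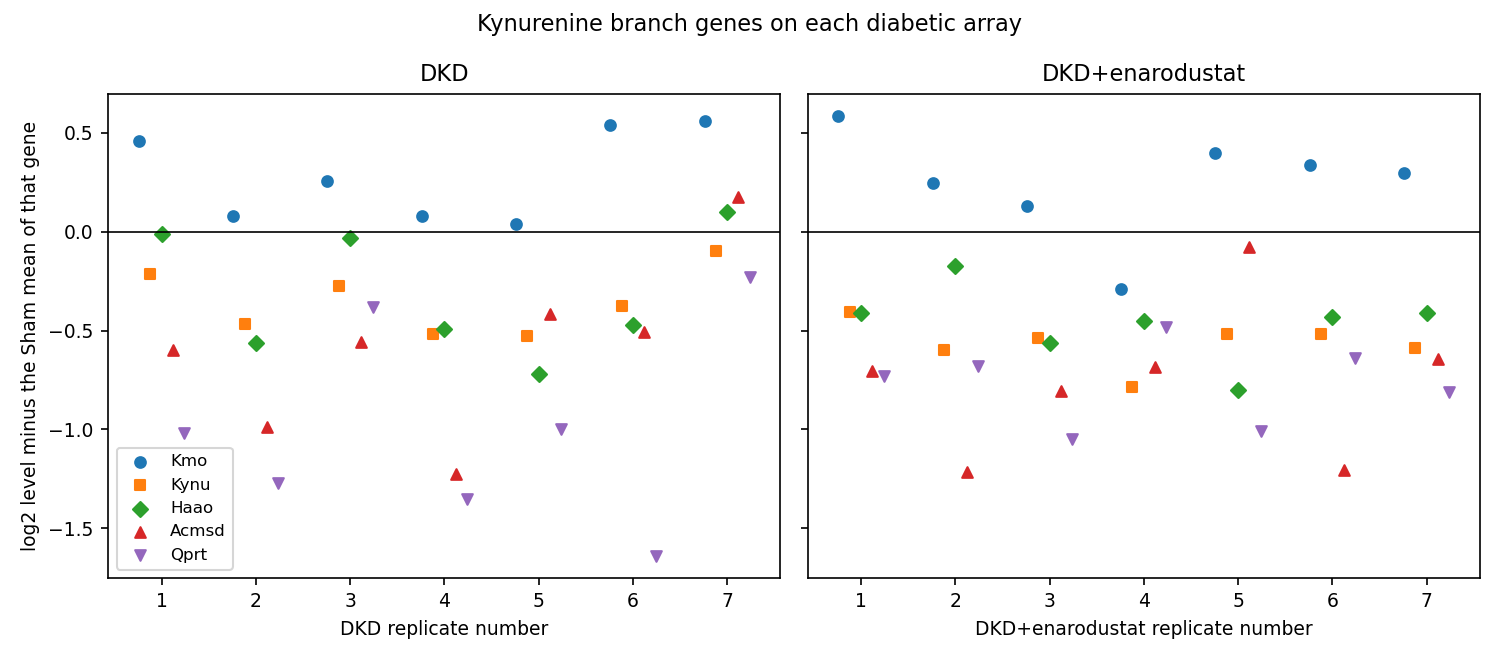
Level of the 5 kynurenine branch genes on each DKD array (left) and DKD+enarodustat array (right), as the log2 level minus the Sham mean of the same gene (vertical axis), against the replicate number (horizontal axis, a name and not an order). On DKD replicate 7 Haao and Acmsd lie above the Sham mean, while Kmo lies above the line on every DKD array and Qprt below it on every diabetic array.

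Proximal tubule markers also differed between the diabetic groups and Sham, in both directions. Of 8 such markers 5 were lower and 2 higher in DKD than in Sham, and 6 were lower and 2 higher in DKD+enarodustat than in Sham. Their summed level ran from 285.9 to 312 in Sham, from 222.5 to 251.6 in DKD and from 205.4 to 263.8 in DKD+enarodustat. Of 5 markers of tubular injury 4 were higher and 1 lower in each diabetic group, with sums from 5.005 to 8.966 in Sham, from 14.08 to 42.4 in DKD and from 9.901 to 44.19 in DKD+enarodustat. Their part in the lower levels of Kynu, Haao, Acmsd and Qprt was not tested. Of 55 markers of all cell types 31 passed between DKD and Sham and 29 between DKD+enarodustat and Sham. Between DKD+enarodustat and DKD 0 of 55 passed (limma), with 5 at an unadjusted p under 0.05.

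Nampt encodes nicotinamide phosphoribosyltransferase, the rate-limiting enzyme of NAD salvage from nicotinamide. Levels in Sham were -2.60, -2.52, -2.84, -2.67 and -2.77. In DKD they ran from -2.18 through -1.83 to -1.44. With enarodustat they ran from -2.33 through -1.86 to -1.55. All 14 diabetic arrays lay above all Sham arrays, and the diabetic groups overlapped broadly. Nampt was 0.88 ± 0.14 higher in DKD than in Sham, or 1.84-fold (limma, adjusted p = 0.000296), which passed in 24 of 24 tested alternatives and was 0.77, 1.21 and 0.79 on slides 1, 2 and 3. It was 0.79 ± 0.14 higher in DKD+enarodustat than in Sham, or 1.73-fold (limma, adjusted p = 0.00047). The diabetic groups differed by -0.09 ± 0.13, with an interval of -0.36 to 0.18 (limma, adjusted p = 0.872). A second Nampt probe, dimmer but above background on all arrays, was 0.42 ± 0.13 and 0.65 ± 0.13 higher in the comparisons with Sham. The probes differed in sign between the diabetic groups, at -0.09 and 0.24 ± 0.12, and neither passed. Macrophages and other leukocytes are a known source of Nampt. Of 7 of their markers 3 were higher in DKD than in Sham, namely Cd163, Csf1r and Lyz2. Ptprc, Cd68, Cd74 and Itgam did not pass, and Itgam, at -0.44 ± 0.25, had the opposite sign. The summed level of the 7 ran from 27.26 to 34.78 in Sham, 30.84 to 48.92 in DKD and 36.66 to 73.16 in DKD+enarodustat. Most of this sum is Lyz2 and Cd74, with mean log2 levels of 4.89 and 3.2 in DKD. The part of these cells in the Nampt result was not tested.

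With slide row as a covariate, 1 of the 10 genes differed between DKD+enarodustat and Sham in place of 6. This was Tph1, at -1.91 (limma, adjusted p = 0.00338). Kynu was then at -0.37, Haao at -0.16, Acmsd at -0.04, Qprt at -0.32 and Nampt at 0.66, with adjusted p-values of 0.153, 0.781, 0.966, 0.696 and 0.155 (limma). That fit takes the row effect from the DKD arrays alone, 2 of them in row 2. Over all genes the count between these groups was 1031 in place of 6311.

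The other genes of the 3 pathways were read from lists of 107 genes, of which 88 were tested. Tests between DKD and Sham called 8 of these 88 higher and 19 lower, and 16 had groups that did not overlap, beside 8.02%, 9.07% and 10.7% of all genes. The counts without 1 array ran from 17 to 26 in place of 27, with 17 without Sham replicate 3. Tests between DKD+enarodustat and Sham called 8 higher and 20 lower, beside 10.03% and 16.03% of all genes, and 6 of the 88 were called with slide row as a covariate. Tests between DKD+enarodustat and DKD called 0 of 88, with 13 at an unadjusted p under 0.05, a share close to the 13.7% of all genes. The counts by list at that p, given next, stand beside the same 13.7%. Calls by list for DKD against Sham stand beside 8.02% of all genes higher and 9.07% lower. For DKD+enarodustat against Sham the shares are 10.03% and 16.03%, and for DKD+enarodustat against DKD 1.07% and 0.933%. The lists were chosen with earlier results of these data known, so nothing is read from how the counts stand to these shares. The median differences of the 88 genes were 0.04, -0.08 and -0.10 for DKD against Sham, DKD+enarodustat against DKD and DKD+enarodustat against Sham.

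Among 21 tested genes of tryptophan uptake and the kynurenine branch, 5 fell and 0 rose in DKD. Afmid, the formamidase that releases kynurenine, fell by 1.02 ± 0.12 (limma, adjusted p = 1.54e-05), and all 7 DKD arrays, from 2.15 to 2.86, lay below all Sham arrays, from 3.45 to 3.73. Kyat1, a kynurenine aminotransferase, fell by 0.64 ± 0.08 (limma, adjusted p = 5.43e-05). Aldh8a1, a dehydrogenase of the branch that leads away from NAD, fell by 0.54 ± 0.10, Wars2, the mitochondrial tryptophanyl-tRNA synthetase, by 0.51 ± 0.13, and Cltrn, the partner of neutral amino acid transporters in the proximal tubule, by 0.21 ± 0.07. Tdo2, a first enzyme of the branch, was close to background (above it on 1 of 5 Sham arrays and 3 of 7 DKD arrays) and differed by 0.26 ± 0.43. Aadat, another kynurenine aminotransferase, differed by 0.04 ± 0.30, and Slc6a19, the main neutral amino acid transporter of the brush border, by 0.35 ± 0.21. Neither passed. In DKD+enarodustat against Sham 6 fell and 0 rose, with Afmid at -1.01 ± 0.12, Kyat1 at -0.70 ± 0.08, Aldh8a1 at -0.61 ± 0.10 and Cltrn at -0.25 ± 0.07. Against DKD, 0 of 21 passed with enarodustat and 2 had an unadjusted p under 0.05. Ido1 was above background on 0 arrays and was not tested, nor were Il4i1 and Cyp1a1.

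Among 33 tested genes of NAD synthesis, salvage and use, 4 rose and 7 fell in DKD. Sirt3, the main NAD-dependent deacetylase of mitochondria, rose by 0.57 ± 0.11 (limma, adjusted p = 0.00162), from a Sham range of -0.99 to -0.56 to a DKD range of -0.46 to 0. Nudt12 and Nudt13, which hydrolyse NADH, fell by 0.55 ± 0.08 (limma, adjusted p = 0.000166) and 0.43 ± 0.09 (limma, adjusted p = 0.00285). Slc25a51, the mitochondrial NAD carrier, fell by 0.38 ± 0.09 and Nmnat1, the nuclear adenylyltransferase that completes NAD, by 0.32 ± 0.10. Genes of this list that did not pass include Naprt at -0.36 ± 0.12, Nadsyn1 at 0.25 ± 0.15, Nmrk1 at 0.06 ± 0.12 and Nnmt at 1.36 ± 0.51, the last with Sham arrays from -6.68 to -3.73. Sirt1, Parp1, Nnt and Ppargc1a, at -0.14 ± 0.09, 0.04 ± 0.06, 0.11 ± 0.08 and -0.21 ± 0.12, did not pass either. In DKD+enarodustat against Sham 4 rose and 7 fell, among them Nudt12 by 0.64 ± 0.08, Nmnat1 by 0.53 ± 0.10, Nmnat3, the mitochondrial adenylyltransferase, by 0.64 ± 0.14, Nudt13 by 0.37 ± 0.09 and Sirt1 by 0.29 ± 0.09, while Sirt3 rose by 0.42 ± 0.11. Against DKD, 0 of 33 passed with enarodustat and 4 had an unadjusted p under 0.05. Nnt, the mitochondrial transhydrogenase, stood at -0.23 ± 0.07 there (limma, adjusted p = 0.115), and it passed with slide as a block (limma, adjusted p = 0.039). It also passed with normexp and quantile normalisation (limma, adjusted p = 0.0446) and in the authors' value table (limma, adjusted p = 0.0155). Against the DKD arrays of row 1 only, the alternative added after the data were seen, it passed as well (limma, adjusted p = 0.043). Cd38, an enzyme that consumes NAD, was above background on 0 arrays and was not tested, nor was Sarm1.

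Among 34 tested genes of monoamine synthesis, transport, breakdown and receptors, 4 rose and 7 fell in DKD. Hnmt, the histamine methyltransferase, fell by 3.30 ± 0.52 (limma, adjusted p = 0.000272), from 0.87 to 1.47 in Sham to between -4.19 and -0.98 in DKD. Slc22a2, the organic cation transporter of the basolateral membrane, fell by 2.00 ± 0.22 (limma, adjusted p = 9.15e-06). Sult1a1, a sulfotransferase of phenols and monoamines, rose by 1.53 ± 0.24 (limma, adjusted p = 0.000211), and Htr3a, a serotonin-gated channel subunit, rose by 1.83 ± 0.31 (limma, adjusted p = 0.00056). Th, Rnls and Drd1 did not pass in DKD, at 0.17 ± 0.36, -0.35 ± 0.18 and 0.62 ± 0.27.

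In DKD+enarodustat against Sham 4 of the 34 rose and 7 fell. Slc22a2 fell by 1.82 ± 0.22 (limma, adjusted p = 1.33e-05), Hnmt by 2.93 ± 0.52 and Pcbd1, which helps recycle tetrahydrobiopterin, by 0.56 ± 0.09, while Htr3a rose by 1.82 ± 0.31. Drd1, the dopamine receptor, rose by 1.14 ± 0.27 (limma, adjusted p = 0.00414), with treated arrays from -6.14 to -4.97, just above the highest Sham array at -6.15. Against DKD, 0 of 34 passed with enarodustat and 7 had an unadjusted p under 0.05. Tph2, the tryptophan hydroxylase of neurons, was above background on 0 arrays and was not tested.

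**Figure D5:**
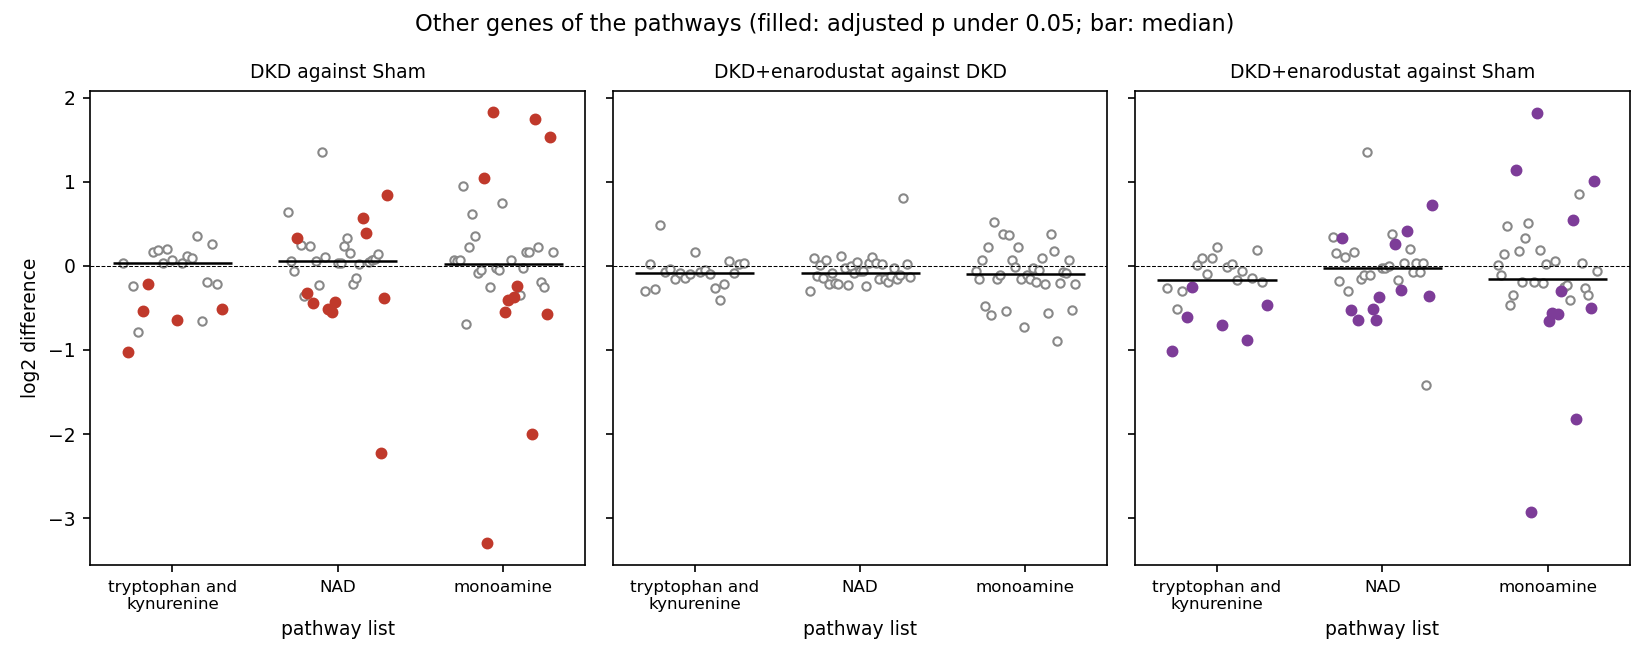
Log2 differences (vertical axis) of the 88 tested pathway genes other than the 10 described, by list (horizontal axis) in each of the 3 comparisons, filled where the adjusted p was under 0.05, with the median of each list as a bar. Filled points lie on both sides of 0 for the NAD and monoamine lists and below 0 for the tryptophan and kynurenine list in both comparisons with Sham, and there are 0 filled points between DKD+enarodustat and DKD.

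The genes whose pattern was most like that of each of the 10 were ranked by Pearson r over the 19 arrays after the slide means were removed, given with no test, since the arrays share groups, slides and scaling. For Nampt they were Aco1 (r = 0.964), Myom1 (0.951) and Vmp1 (0.946). Kynu was most like Scly (0.958), Sepsecs (0.956) and Paqr9 (0.934), and Acmsd most like Zc3hav1l (0.968), Elavl1 (0.897) and Canx (0.897). For Qprt they were Prep (0.89), Ttc21b (0.886) and Spock1 (0.869), and for Haao Agmat (0.885), Cdk2ap1 (0.88) and Casq1 (0.876). Tph1 was most like Magi3 (0.922), Kbtbd3 (0.921) and Sprtn (0.918). Maob had its closest match in Iscu (0.832), then Acox3 (0.82) and Erlec1 (0.814), and Maoa in Bet1 (0.887), Laptm4b (0.878) and Mat2b (0.859). For Ddc and Kmo, which passed in no comparison, the first matches were Greb1 (0.843) and Slc6a20a (0.894).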

How the data were processed

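Intensity values came from the Agilent scanner text files deposited by the authors, 1 file per array with 62976 spots, of which 58717 were not controls. The submitters' processing notes name Agilent Feature Extraction 11.5.1.1 and limma. The deposited log2 value table holds 22739 probes and has medians of 8.13 to 8.21 per array. It correlated with normexp and quantile values at 0.9973 to 0.9993, its exact scale and centring are not given in the sources used here, and it served as an alternative only.

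Groups were taken from the sample titles. Each array's log2 processed signal was reduced by its 75th percentile over non-control spots, spots of a probe were averaged without outlier flags (65 missing probe values), and 45598 probe names were linked to gene names through RefSeq accessions (21109), matching file names (1977) or the file's own name (22512). Probes had to exceed background clearly on 5 or more of the 19 arrays, and a gene was represented by its brightest such probe. The 10 genes had 19 probes, 17 of them kept. limma 3.58.1 in R 4.3.3 (lmFit, eBayes, 16 residual degrees of freedom) was fitted over 24217 genes with all 3 groups together. Benjamini-Hochberg adjustment ran over all genes in each comparison, with a threshold of 0.05. The fit was tested on simulated data drawn independently for each gene and array. Those data held no slide, row or replicate effects, so that test does not cover such effects. Because each value is relative to its own array, a difference shows unequal change and not an absolute amount, and the number of arrays limits the precision. All arrays were scanned on 1 day.

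The genes, the pathway lists and the marker lists were chosen with earlier results of these data known. Named pathway genes were a set list plus up to 4 per list and comparison with the smallest adjusted p, and some of them are not reported here. Likeness was the 3 highest Pearson r. The replicate numbers of the titles also mark the slide. In all 17 same-numbered pairs across groups the arrays' deviations from their group means correlated above 0.1 (0.133 to 0.594). Each of these pairs shared a slide, and pairs with unlike numbers were not compared. A pairing of samples therefore cannot be told apart from a shared slide, and the replicate block was run as an alternative. Other alternatives were other normalisations, filters, probe rules, groups in the fit, slide and slide row terms, and leaving out each array. Probe positions are those of the files (rn4), and exon or UTR annotation of that assembly was not used here.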

Additional observations from a re-analysis of the deposited data

Results flagged for a closer look

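In 30 sets of arrays, 10 genes in 3 groups, 2 arrays stood apart from the rest of their group, and chance alone marks about 5% of such sets. Tph1 on DKD replicate 7 stood at -7.26 with the next array at -6.43, a gap of 0.676 of the group's range and above Dixon's 95% critical value for 7 arrays. Maoa on DKD+enarodustat replicate 4 stood at -4.20 with the next at -3.72, a gap of 0.748 of the range.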

How the results depend on the processing

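None of the 824 recomputed differences of the 10 genes reversed a called direction, although 28 had another sign than reported or were 0 after rounding. In these 28 the reported difference did not pass, and the recomputed one did not pass or, on a slide taken alone, was not tested. Of the 10 genes, the count called between DKD+enarodustat and DKD was 1 in place of 2 with normexp, in the value table, without the dim filter, with probes above background on every array, with the mean of probes and with DKD arrays of row 1 only. It was 0 with only the 2 groups, with slide row as a covariate and within row 2, and 1 to 2 without 1 array. The pathway count there, 0 as reported, was 2 with normexp, 6 in the value table, 1 with probes above background on every array, 2 with slide as a block, 1 with slide row, 1 with DKD row 1 only and 0 to 1 without 1 array. For DKD+enarodustat against Sham, slide row gave 1 of the 10 genes and 6 pathway genes. For DKD against Sham, row 1 alone gave 3 of the 10 genes, and leaving out 1 array gave 17 to 26 pathway genes. With the replicate block the counts of the 10 genes were 5, 2 and 6 in the 3 comparisons, those of pathway genes 25, 0 and 28, and no call of the 10 genes changed.

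Over all genes, 485 were called between DKD+enarodustat and DKD, against 291 with median centring, 1775 in the value table, 284 without the dim filter, 276 with only the 2 groups, 915 with slide as a block, 84 with slide row, 12 within row 2 and 286 without DKD replicate 6. The count of 6311 against Sham was 10744 without the dim filter and 1031 with slide row. The share of calls that were higher, 46.9% for DKD against Sham, was 34.7% with normexp and quantile normalisation. It was 34.3% in place of 53.4% for DKD+enarodustat against DKD in the value table. Dim signal limits Tph1, which the value table and the filter for every array do not hold.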
